A study of Carassius auratus with 10 samples.

Results

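Immediate-early transcription factor genes of the AP-1 and EGR families, and a NAB corepressor gene, were followed in cultured goldfish radial glial cells (RGCs). The symbols sought were *jun*, *junba*, *junbb*, *fosab*, *fosl1a*, *fosl2*, *egr1* and *nab1a*. Members were the unigenes, the clustered contigs of a *de novo* assembly, whose deposited Gene Name began with one of these 8 symbols. This gave 16 unigenes of 7 symbols, out of 51399 unigenes with a Gene Name and 170956 unigenes with reads. No unigene had *junbb* as its Gene Name, but 2 unigenes without a Gene Name carried it as the gene tag of their protein name. These were added after the names had been seen, which made 18 unigenes, and are left out of the member counts unless stated.

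AP-1 is a dimer of a Jun protein with a Fos protein or with another Jun protein, and it binds short DNA sites in genes of growth, migration, matrix turnover and stress. EGR proteins are zinc finger factors that bind GC-rich sites, and NAB proteins attach to EGR proteins and mostly repress them. In many cell types growth factors, serum and injury raise the transcripts of AP-1 and EGR genes quickly and for a short time. This runs through MAP kinases and serum response factor, and in brain such transcripts serve as marks of recent stimulation.

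Cells dissociated from telencephalon and hypothalamus of adult female goldfish (*Carassius auratus*) were grown in medium with fetal bovine serum and were used at passage 3. The SNa group had 3 cultures exposed to 1000 nM SNa, the goldfish secretoneurin a peptide, for 24 h. The SKF group had 3 cultures exposed for 24 h to 10 µM of the D1 dopamine receptor agonist SKF 38393. The labels name 4 untreated Control cultures and tie all 4 to both comparison tables. One of these carries no replicate number and was run on 1 lane, unlike the others, and the study's methods count 3, so the make-up of the Control pool is uncertain. Both treatments were sampled once, so an early and short response could not be seen, and the 2 doses are of different substances and are not matched. By the study's methods, the SNa peptide was diluted in medium without serum for the exposure. They do not state the medium of the Control cultures over those 24 h. The part of serum in the ratios to Control was not tested.

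The deposited tables hold 1 normalized value per group, so no value could be split by culture. The pooled reads were 64778968 in SNa, 86711702 in SKF and 147886694 in Control. No SD, test or replicate check was computed here for any difference, since pooled values hold no spread between cultures, and every interval printed is a 95% exact binomial interval that covers counting error only. A log2 ratio above 0.5 or below -0.5 was counted as past the fold. Levels are given as CPM, the pooled reads scaled to equal pool totals, and because unigene lengths are not in the files used, levels of different genes were not compared. Reads of duplicated copies that are near-identical cannot be told apart, nor can fewer cells of a type be told from less RNA per cell.

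The labelled cell type was checked with 19 radial glia markers, of which 14 were found by Gene Name and none was at 0 reads, while *cyp19a1b*, *hes5*, *cx43*, *gja1b* and *slc1a3a* had no such row. The glial filament genes *vim* and *gfap* had 2311 and 1134 CPM in SNa, 2318 and 1092 CPM in SKF, and 3697 and 1622 CPM in Control. Larger differences stood in other radial glia markers, picked after their values had been seen. The brain lipid binding protein genes *fabp7a* and *fabp7b* had 10.0 and 151 CPM in SNa, 10.6 and 165 CPM in SKF, and 303 and 699 CPM in Control, and the glutamate transporter gene *slc1a3b* had 41.3 CPM in SNa, 41.2 CPM in SKF and 358 CPM in Control. Summed radial glia markers came to 4425 CPM in SNa, 4420 CPM in SKF and 7662 CPM in Control, and 9 of 13 markers in SNa and 8 of 13 in SKF were below -0.5 against Control. In each treated pool 1 of 13 was higher than Control, though not above 0.5. That marker was *nes*, with 228 CPM in SNa, 195 CPM in SKF and 160 CPM in Control. *her4.1* was nearly level in SNa, at -0.016. Markers of other cell types also differed between the treated pools and Control. Fibroblast and mural markers, led by the matrix genes *fn1b* and *col1a1a*, summed to 64109 CPM in SNa, 65134 CPM in SKF and 39625 CPM in Control. Their median log2 ratio to Control was 0.58 in SNa, with 14 of 23 above 0.5 and 1 below -0.5. In SKF it was 0.62, with 16 of 25 above 0.5 and 2 below -0.5. The 1 below in SNa was *rgs5b*, at -1.67, and it had -1.26 in SKF. Lens markers, led by the crystallin genes *crybb2* and *crybb1*, summed to 97.6 CPM in SNa, 85.7 CPM in SKF and 1119 CPM in Control, and 20 of 20 were below -0.5 in each treated pool, with *crygs3* at 0 reads in both. Endothelial markers, led by *cldn5a* and *flt1*, summed to 141, 139 and 219 CPM in the SNa, SKF and Control pools, a difference that lay mainly in *cldn5a* (30.6, 30.4 and 104 CPM). The median log2 ratio of the endothelial list was 0.018 in SNa, with 1 of 7 above 0.5 and 2 below -0.5, and -0.14 in SKF, with the same counts. Macrophage and microglia markers, led by *apoeb* and *cd74a*, summed to 712, 648 and 655 CPM in the same order of pools, epidermis markers, led by *krt8* and *krt18*, to 8380, 8257 and 9326 CPM, and neuron markers, led by *tubb5* and *map2*, to 62.8, 60.6 and 61.9 CPM. These sums rest on few genes. The epidermis sum in SNa held 5093 CPM of *krt8*, 1844 CPM of *krt18* and 1161 CPM of *krt4*. Its other entries, listed after their values had been seen, were *dspa* at 271 CPM and *krt17* at 4.80 CPM. Lower still were *tp63* at 2.72 CPM, *krt15* at 2.53 CPM and *epcam* at 0.617 CPM, and *krt5* had 0 reads. The sum is not read as a level of epidermal cells. For all marker counts given here, the shares over all symbols were 12.4% above 0.5 and 14.4% below -0.5 in SNa. In SKF they were 16.7% above and 14.4% below. Of the macrophage and microglia markers 3 of 7 were above 0.5 in SNa (median 0.41) and 2 of 7 in SKF (median 0.16), with 0 below -0.5 in either. Of the neuron markers 1 of 10 was above and 3 below in SNa (median -0.061), and 1 of 12 above and 5 below in SKF (median -0.28). Of the epidermis markers 0 of 8 were above and 1 below in SNa (median -0.029), and 1 of 8 above and 2 below in SKF (median -0.12). Of 12 pituitary markers 1 was found, *pomca*, at 0.062, 0.046 and 0.169 CPM. The part of these differences in the results on the member genes was not tested.

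**Figure D1:**
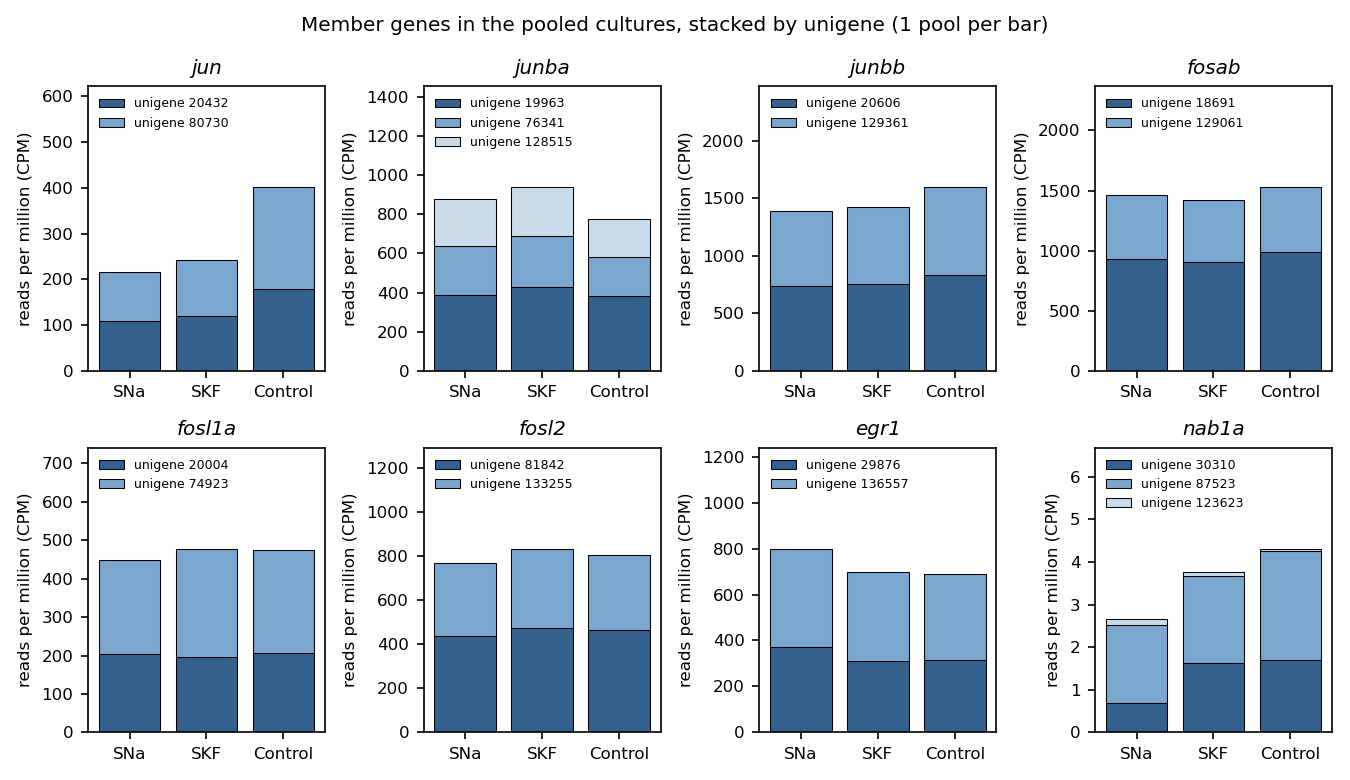
Level of each member gene in the SNa, SKF and Control pools, in CPM, with a scale of its own for each gene. Each bar is 1 pool and is stacked by unigene. *jun* stood at 216 CPM in SNa and 243 CPM in SKF, against 402 CPM in Control, with both unigenes lower, while the bars of the Fos genes were nearly level.

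Most member genes differed little in SNa from Control. Of the 7 members found by Gene Name, 2 were below -0.5 in SNa (*jun* and *nab1a*) and 0 were above 0.5, where 26.8% of 15861 symbols were past the fold in either direction and 14.4% were below it. The median log2 ratio of the 7 was -0.082, against 0.0079 over all symbols. In SKF, 1 of 7 was below -0.5 (*jun*) and 0 were above 0.5, where 31.2% of 16043 symbols were past the fold and 14.4% below. The median was 0.0043, against 0.045 over all symbols. At a log2 ratio past 1 in either direction 0 of 7 members were found in SNa, SKF or SNa over SKF, where 7.51%, 8.12% and 3.95% of symbols were. Both comparisons used the same Control pool and are not independent. Counted in either direction, the shares of members past the fold were thus close to or under those of all symbols. In SNa both members past it were below, 2 of 7 where 14.4% of all symbols were. The count was 1 with the unigene of the highest mean or the median over unigenes. The members were also chosen with earlier results of these data known, so no excess is read from this share. All members but *nab1a* had at least 10000 Control reads. Of symbols with that many, 18.9% were past the fold in SNa and 10.5% below it, and 21.6% and 11.2% in SKF.

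*jun* encodes c-Jun, the Jun protein that Jun N-terminal kinases activate. Its 2 unigenes together had 13999 reads in SNa, 21063 in SKF and 59417 in Control, which is 216, 243 and 402 CPM. The Control pool was thus the highest and SNa the lowest. The ratio to Control was 0.534 in SNa (0.520 to 0.548), a log2 ratio of -0.91. In SKF it was 0.601 (0.588 to 0.615), a log2 ratio of -0.73. Among the 1916 symbols with at least 10000 Control reads, 2.87% had a lower log2 ratio than *jun* in SNa and 4.07% in SKF. Unigene 80730, whose protein hit spans residues 1 to 297, had 107, 123 and 222 CPM in SNa, SKF and Control, and log2 ratios to Control of -1.07 (-1.12 to -1.01) in SNa and -0.86 (-0.91 to -0.82) in SKF. Unigene 20432, with a hit at residues 4 to 297, had 109, 120 and 180 CPM and log2 ratios of -0.73 (-0.79 to -0.68) and -0.59 (-0.64 to -0.54) in SNa and SKF. Both unigenes were therefore lower in each treated pool than in Control, unigene 80730 by more. Unigene 80730 made up 49.5% of the *jun* reads in SNa (48.3 to 50.7), 50.6% in SKF (49.6 to 51.5) and 55.3% in Control (54.7 to 55.8).

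The JunB copies differed from each other in direction. *junba*, a teleost copy of the JunB gene, had 876 CPM in SNa, 938 CPM in SKF and 773 CPM in Control, so the order of the pools was SKF, SNa, Control. Its log2 ratio to Control was 0.17 (0.15 to 0.19) in SNa and 0.27 (0.25 to 0.29) in SKF. In SNa the difference lay mainly in 2 of its 3 unigenes, while in SKF all 3 were higher than in Control. Unigenes 76341 and 128515 had log2 ratios of 0.32 and 0.30 in SNa and of 0.38 and 0.36 in SKF. Unigene 19963, the *junba* unigene with most reads, had 387 CPM in SNa, 430 CPM in SKF and 382 CPM in Control. Its log2 ratio was 0.0077 (-0.023 to 0.038) in SNa, an interval that holds 0, and 0.17 (0.14 to 0.19) in SKF. Its share of the *junba* reads was 44.2% in SNa (43.6 to 44.7), 45.8% in SKF (45.4 to 46.3) and 49.4% in Control (48.9 to 49.8).

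*junbb*, the other JunB copy, had 1388 CPM in SNa, 1424 CPM in SKF and 1597 CPM in Control, so that the pools had the same order as for *jun*, by a smaller difference. The log2 ratio was -0.21 (-0.23 to -0.20) in SNa and -0.17 (-0.19 to -0.16) in SKF, within the fold of 0.5 in both. Its unigenes were close to each other, at -0.19 and -0.25 in SNa and at -0.15 and -0.20 in SKF for unigenes 20606 and 129361. With *junbb* included, 2 of 8 members in SNa and 1 of 8 in SKF were past the fold.

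The Fos partners among the members were nearly level across the pools. *fosab*, a teleost counterpart of c-Fos, had 1464 CPM in SNa, 1417 CPM in SKF and 1529 CPM in Control. Its log2 ratio to Control was -0.074 (-0.090 to -0.059) in SNa and -0.12 (-0.13 to -0.10) in SKF. *fosl1a*, a counterpart of Fra-1, had 449 CPM in SNa, 478 CPM in SKF and 474 CPM in Control, with log2 ratios of -0.092 (-0.12 to -0.064) in SNa and 0.0043 (-0.021 to 0.029) in SKF. The summed SKF and Control levels of *fosl1a* could not be told apart within counting error, but its unigenes lay on opposite sides. In SKF unigene 20004 had -0.092 (-0.13 to -0.054) and unigene 74923 had 0.075 (0.043 to 0.11). *fosl2*, the Fra-2 gene, had 768 CPM in SNa, 834 CPM in SKF and 806 CPM in Control, and its log2 ratios were -0.082 (-0.10 to -0.061) in SNa and 0.040 (0.022 to 0.059) in SKF. The 6 Fos unigenes ranged from -0.13 to -0.014 in SNa and from -0.14 to 0.075 in SKF. The 7 members by Gene Name summed to 4575 CPM in SNa, 4612 CPM in SKF and 4677 CPM in Control, a log2 ratio of -0.043 (-0.052 to -0.035) in SNa and -0.028 (-0.036 to -0.020) in SKF.

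*egr1*, the zinc finger gene also called *zif268*, had 51818 reads in SNa, 60518 in SKF and 101782 in Control, which is 800, 698 and 688 CPM. SNa was the highest pool and the SKF and Control levels were close to each other. The log2 ratio to Control was 0.21 (0.18 to 0.23) in SNa and 0.013 (-0.0079 to 0.033) in SKF, the second with an interval that holds 0. Both *egr1* unigenes were higher in SNa than in Control. Unigene 29876 had a log2 ratio of 0.22 (0.19 to 0.25) in SNa and -0.024 (-0.054 to 0.0070) in SKF. Unigene 136557 had 0.19 (0.16 to 0.22) in SNa and 0.043 (0.015 to 0.070) in SKF.

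*nab1a*, which encodes a corepressor of EGR proteins, was the least deeply covered member, with 172 reads in SNa, 327 in SKF and 638 in Control. Its level was 2.66 CPM in SNa, 3.77 CPM in SKF and 4.31 CPM in Control. The ratio to Control was 0.610 in SNa (0.475 to 0.777), a log2 ratio of -0.71 (-1.07 to -0.36). In SKF it was 0.870 (0.716 to 1.05), a log2 ratio of -0.20 (-0.48 to 0.075), so SKF and Control could not be told apart at this depth. The SNa value differed with which unigene was read. Unigene 30310, whose hit covers residues 32 to 486, had 44 reads in SNa, 141 in SKF and 252 in Control, and log2 ratios of -1.34 (-2.06 to -0.68) in SNa and -0.075 (-0.52 to 0.36) in SKF. Unigene 87523, with a hit over residues 1 to 521, had 120, 178 and 376 reads in the SNa, SKF and Control pools and log2 ratios of -0.47 (-0.91 to -0.042) and -0.32 (-0.70 to 0.055) in SNa and SKF. The intervals of the 2 unigenes overlapped. The short unigene 123623, with a hit over residues 1 to 81, had 8, 8 and 10 reads and was the only one of the 18 with a mean normalized count under 10.

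**Figure D2:**
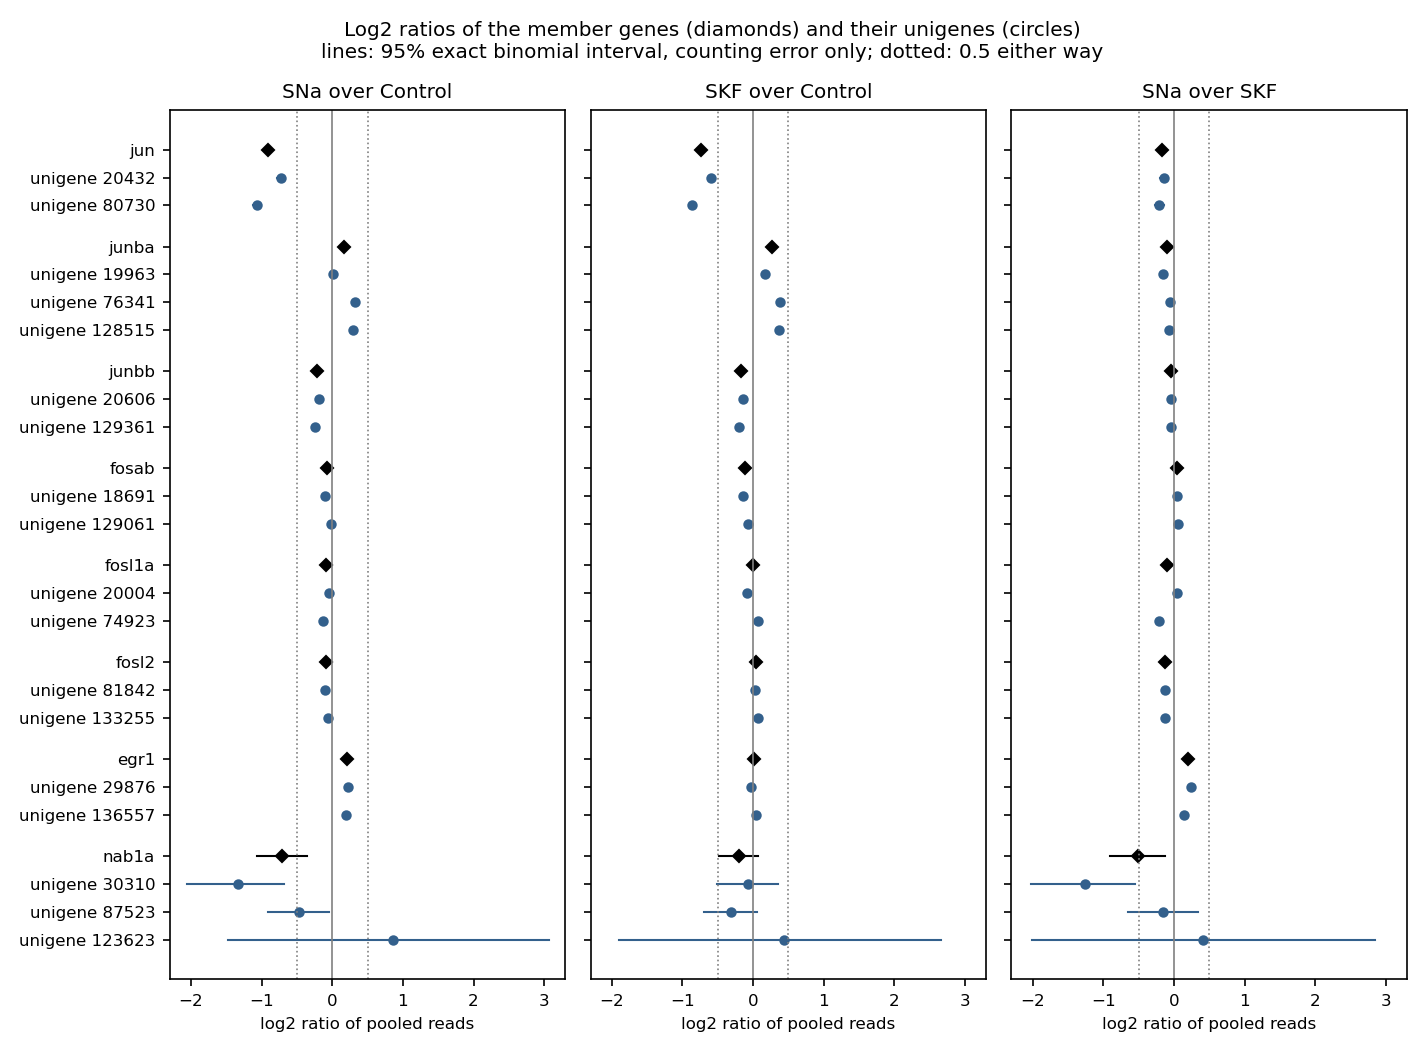
Log2 ratios of pooled reads for each member gene (diamonds) and each of its unigenes (circles), for SNa over Control, SKF over Control and SNa over SKF. Lines are 95% exact binomial intervals, which cover counting error only and are mostly narrower than the symbols, and dotted lines mark 0.5 either way. Both *jun* unigenes lay below -0.5 in both comparisons with Control, and the *nab1a* intervals were the widest.

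The unigenes of a member did not always lie close to each other. For example, those of *jun* and of *junba* differed beyond counting error in SNa. Those of *fosl1a* lay on opposite sides of 0 in SKF, as given above. Of the 18, the protein hit of 15 began at residue 1, and identity to the best protein hit ran from 73.2% to 92.6%. Each *fosl1a* unigene, at 73.7% and 73.2%, and each *fosab* unigene, at 79.6% and 79.5%, was under 80%. Of the 17 unigenes with a mean normalized count of at least 10, 3 were below -0.5 in SNa and 0 above 0.5, where 24.7% of all such unigenes were below and 22.8% above. In SKF 2 were below -0.5 and 0 above 0.5, where 26.1% of all such unigenes were below and 24.0% above. The 3 were both *jun* unigenes and *nab1a* unigene 30310, and the 2 were both *jun* unigenes. These shares over all unigenes are not matched in depth. Apart from those of *nab1a*, every member unigene had a mean normalized count of at least 13956. The mean was taken over all pools for members and over the 2 pools compared for the other unigenes.

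SNa and SKF were then set against each other, which leaves the shared Control pool out. The replicate numbers of the SNa and SKF cultures in the labels are not all the same. The study's methods do not say what these numbers stand for, and their part in the differences was not tested. All symbols lay closer together in this comparison. Among the 1916 symbols with at least 10000 Control reads, the 5th to 95th percentile ran from -0.24 to 0.13, against -0.67 to 0.58 for SNa over Control and -0.68 to 0.66 for SKF over Control. Of the 7 members, 1 was past the fold (*nab1a*, below), where 11.1% of 15813 symbols were past it, 6.87% below and 4.24% above. That member stood just past the fold, at -0.51, and was within it under 5 of 8 alternative settings. The median log2 ratio of the members was -0.10, against -0.031 over all symbols.

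*egr1* was the member farthest above 0 between the treatments, with 800 CPM in SNa and 698 CPM in SKF. The log2 ratio of SNa over SKF was 0.19 (0.17 to 0.22), a ratio of 1.14 (1.12 to 1.16), and 98.2% of the 1916 abundant symbols and 87.6% of all symbols had a lower value. Both unigenes lay on the same side, at 0.25 (0.21 to 0.28) for unigene 29876 and 0.15 (0.12 to 0.18) for unigene 136557. The difference was below the fold of 0.5. *fosab* was the only other member above 0, at 0.042 (0.025 to 0.060).

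*jun* was lower in SNa than in SKF by a log2 ratio of -0.17 (-0.22 to -0.13), and 10.4% of the abundant symbols and 23.4% of all symbols had a lower value. *fosl2* stood at -0.12, *junba* at -0.10, *fosl1a* at -0.096 and *junbb* at -0.042. The *fosl1a* value came from 1 unigene, since unigene 74923 had -0.21 (-0.25 to -0.17) and unigene 20004 had 0.049 (0.0022 to 0.095). *nab1a* had a log2 ratio of -0.51 (-0.90 to -0.13). Its unigene 30310 had -1.26 (-2.03 to -0.56) and its better covered unigene 87523 had -0.15 (-0.65 to 0.34), an interval that holds 0. Of all symbols with a mean normalized count of at least 10, 6.62% had a lower value than *nab1a*, and of the abundant symbols, which have more reads than it, 0.365% did.

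**Figure D3:**
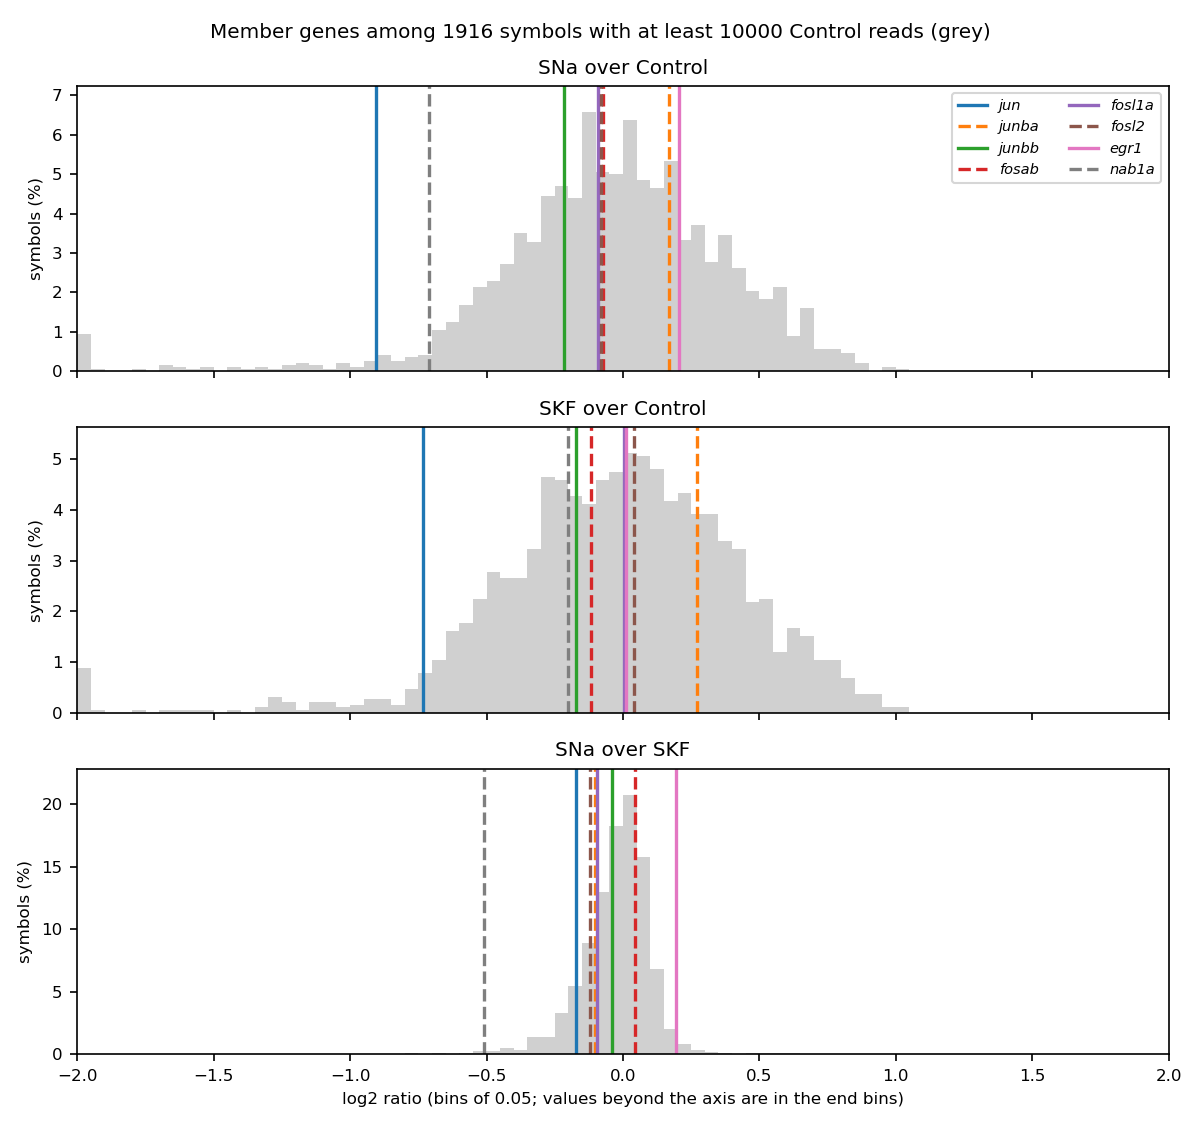
Position of the 8 member genes (coloured lines) among the 1916 symbols with at least 10000 Control reads (grey, percent of symbols per log2 bin) in SNa over Control, SKF over Control and SNa over SKF. *jun* stood in the low tail against Control in both treated pools, and *egr1* at 0.19 and *nab1a* at -0.51 stood at the edges of the narrow SNa over SKF distribution. *nab1a* has fewer reads than the grey symbols, so its counting error is larger than theirs.

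As background to the fixed lists, the shares over all symbols were 12.4% above 0.5 and 14.4% below -0.5 in SNa, with a median of 0.0079, and 16.7% above and 14.4% below in SKF, with a median of 0.045. The other genes of the AP-1 family were taken from a fixed list, of which 14 of 26 entries were found and 13 had a mean normalized count of at least 10. In SNa 3 of 13 were below -0.5 and 0 above 0.5, with a median of -0.066. In SKF 3 were below and 1 above, with a median of 0.14. In this and the other lists, entries found only by the gene tag of their protein name are outside the counts. Such an entry here was *mafk*, picked after its values had been seen. It was above 0.5 in both, at 0.52 (0.42 to 0.63) in SNa and 0.80 (0.70 to 0.89) in SKF. *fosl1b*, the second Fra-1 copy, had 3.41 CPM in SNa, 2.95 CPM in SKF and 6.27 CPM in Control, with log2 ratios of -0.89 (-1.20 to -0.59) in SNa and -1.09 (-1.39 to -0.81) in SKF, unlike the nearly level *fosl1a*. *batf*, an AP-1 partner best known from immune cells of mammals, had -0.67 in SNa and -0.55 in SKF, from 66 reads in SNa, 96 in SKF and 238 in Control. *jdp2a*, a repressive partner of Jun, had -0.56 in SNa and -0.42 in SKF. The entry *jdp2*, with 80832 Control reads against 8447 of *jdp2a*, had -0.066 in SNa and -0.11 in SKF. It was named after its values had been seen. *atf7b*, of the ATF group, had 0.43 in SNa and 0.66 in SKF, and its copy *atf7a*, also named afterwards, had 0.44 and 0.46. *jund* and *fosb*, which were not among the largest differences and were picked after their values had been seen, had log2 ratios of 0.14 and 0.030 in SNa and of 0.41 and 0.29 in SKF. *fosaa*, the second c-Fos copy, was picked in the same way. It had -0.20 (-0.38 to -0.011) in SNa and 0.24 (0.087 to 0.39) in SKF. In SNa over SKF *fosaa* had -0.44 (-0.63 to -0.24), unlike *fosab*.

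Of the other EGR and NAB genes, 6 of 10 entries were found and measured, and 2 were above 0.5 and 1 below -0.5 in SNa, with a median of 0.15. In SKF 2 were above and 0 below, with a median of 0.23. The zinc finger gene *egr2b* had 11.0 CPM in SNa, 10.2 CPM in SKF and 5.61 CPM in Control, with log2 ratios of 0.96 (0.75 to 1.17) in SNa and 0.86 (0.66 to 1.05) in SKF. Its copy *egr2a* had 252, 235 and 169 CPM in the SNa, SKF and Control pools and log2 ratios of 0.57 (0.53 to 0.61) and 0.47 (0.43 to 0.51) in SNa and SKF. *egr3* had 0.42 in SNa and 0.71 (0.66 to 0.75) in SKF. All 3 stood farther above Control than *egr1* in both treated pools. The corepressor gene *nab2* had 13.5 CPM in SNa, 19.5 CPM in SKF and 19.6 CPM in Control, a log2 ratio of -0.55 (-0.71 to -0.40) in SNa and -0.014 (-0.14 to 0.11) in SKF. Between the treatments *nab2* had -0.54 (-0.71 to -0.37), and *nab1b*, named after its value had been seen, had -0.40 in SNa, -0.26 in SKF and -0.13 (-0.28 to 0.015) between the treatments, an interval that holds 0.

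Other immediate-early genes were spread on both sides. Of 46 measured among 58 entries, 6 were above 0.5 and 3 below -0.5 in SNa, with a median of -0.092, and 6 were above and 4 below in SKF, with a median of 0.072. *socs3a*, a feedback inhibitor of cytokine receptors, had 403 CPM in SNa, 432 CPM in SKF and 705 CPM in Control, with log2 ratios of -0.82 (-0.85 to -0.79) in SNa and -0.71 (-0.74 to -0.69) in SKF. *dusp5*, a phosphatase of ERK, had -0.62 in SNa and -0.35 in SKF. *ctgfb*, a matricellular growth factor gene, had 0.70 in SNa and 0.89 in SKF. *klf2b*, a zinc finger factor, had 0.60 in SNa and 0.61 in SKF. Second copies were named after their values had been seen. In SNa and SKF *socs3b* had -0.46 and -0.42 and *ctgfa* had 0.38 and 0.34. *klf2a* had -0.14 and -0.47, on the other side from *klf2b*. In SNa over SKF 30 of the 46 were below 0 and 16 above, with a median of -0.064 against -0.031 over all symbols. This lean was not particular to the list. Below 0 were also 10 of 13 other AP-1 genes, 25 of 35 upstream genes and 17 of 25 targets, and 3 of 6 other EGR and NAB genes. Of the 46, 2 were above 0.5 in SNa over SKF and 1 below -0.5, where 4.24% of all symbols were above and 6.87% below. The 2 above had few reads, *trib1* with 14 in SNa and 10 in SKF and *klf11a* with 54 and 50. Both of their intervals hold 0. The 1 below was *plk2a*, at -0.51 (-0.90 to -0.12).

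Of the upstream kinases and ternary complex factors, 35 of 45 entries were measured, and 5 were above 0.5 and 1 below -0.5 in SNa (median 0.14), against 6 above and 1 below in SKF (median 0.23). The ribosomal S6 kinase gene *rps6ka3b* had the largest difference among the symbols of the list with at least 200 Control reads, with 6.92 CPM in SNa, 7.48 CPM in SKF and 18.3 CPM in Control, at -1.41 (-1.62 to -1.21) in SNa and -1.30 (-1.47 to -1.12) in SKF. *mkl2a*, a coactivator of serum response factor, had 0.74 in SNa and 0.76 in SKF. Second copies, named after their values had been seen, differed from both genes. *rps6ka3a* had 0.19 in SNa and 0.28 in SKF. *mkl2b*, with 21386 Control reads against 904 of *mkl2a*, had 0.0047 in SNa and 0.20 in SKF. *map2k7*, which activates Jun N-terminal kinases, had 0.59 in SNa and 0.63 in SKF, and *mapk3*, which encodes ERK1, had 0.56 in SNa and 0.71 in SKF.

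Genes known as AP-1 or EGR targets in mammals also lay on both sides of 0. In SNa 5 of 25 were above 0.5 and 7 below -0.5, with a median of 0.13, where 12.4% of all symbols were above and 14.4% below. In SKF 7 of 27 were above and 6 below, with a median of 0.30, where 16.7% of all symbols were above and 14.4% below. *pdgfaa*, a platelet-derived growth factor chain, had 38.3 CPM in SNa, 40.4 CPM in SKF and 120 CPM in Control, at -1.65 (-1.74 to -1.57) in SNa and -1.57 (-1.65 to -1.50) in SKF. *hmox1a*, a heme oxygenase, had -1.21 in SNa and -1.51 in SKF. Second copies, named after their values had been seen, lay nearer to Control. *pdgfab*, found only by the gene tag, had 0.027 in SNa and 0.25 in SKF, and *hmox1b* had -0.23 and -0.47. *plaua*, a urokinase-type plasminogen activator, had 0.79 in SNa and 0.58 in SKF, and the matrix protease gene *mmp9* had 0.69 in SNa and 0.85 in SKF. *vim*, which is also a radial glia marker, is on this list, and fibroblast and mural markers differed between the pools as given above.

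**Figure D4:**
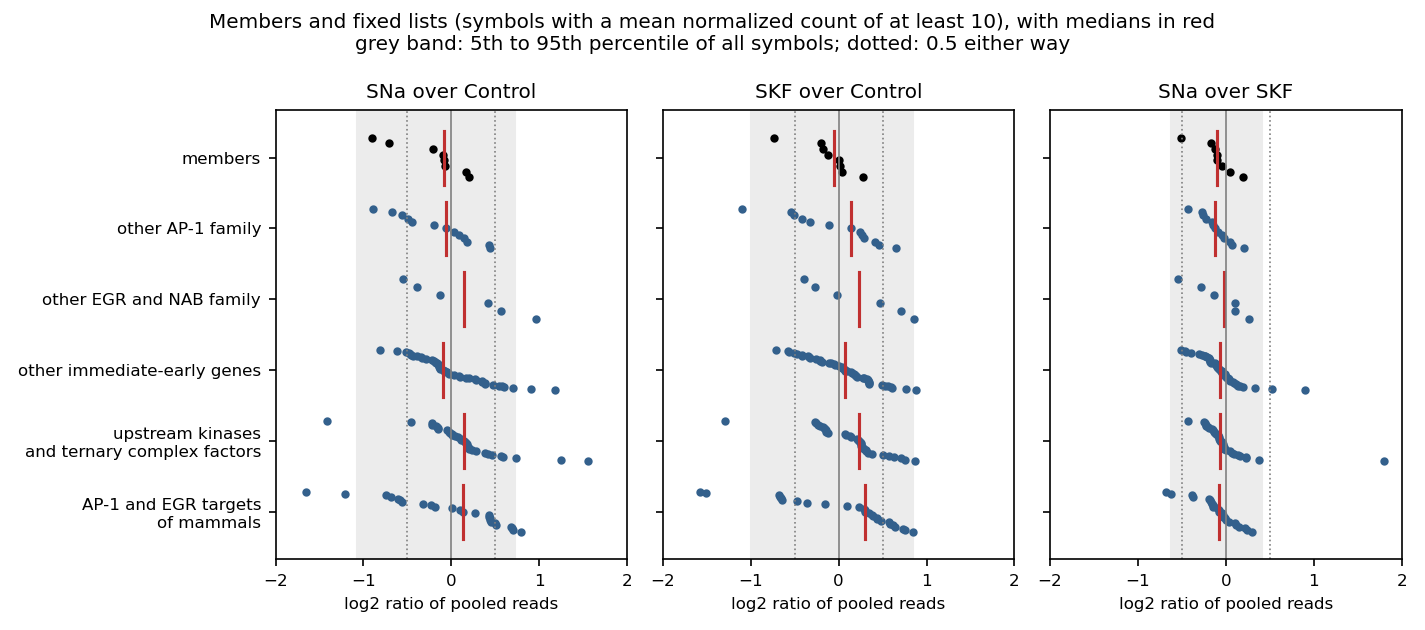
Log2 ratios of the 8 member genes (black) and of the genes of 5 fixed lists (blue) with a mean normalized count of at least 10, for SNa over Control, SKF over Control and SNa over SKF. Red bars are medians, the grey band is the 5th to 95th percentile of all symbols and dotted lines mark 0.5 either way. The lists spread to both sides of 0 against Control and lay closer together in SNa over SKF.

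The genes most like *jun*, the member with the largest log2 ratio in size in both comparisons, were found by the distance between pairs of log2 ratios to Control, over 3 pools and 7913 symbols with at least 1000 Control reads. The nearest was *ing5b*, at -0.92 in SNa and -0.75 in SKF, followed by *mid1ip1b* at -0.88 and -0.74 and by *efnb3b* at -0.89 and -0.71. Within a distance of 0.1 of *jun* there were 19 symbols.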

How the data were processed

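RNA from 10 cultures (3 SNa, 3 SKF, 4 Control) was sequenced as paired ends. The authors trimmed and pooled the reads, assembled them with Trinity, clustered the contigs with CD-HIT and named the unigenes by BLASTX hits to chordate UniProt proteins. The read counter, and its version, was not given in the sources used here. Each deposited signal is 1 normalized count per group and unigene, pooled reads that the authors divided by a DESeq size factor, in 1 table per treatment. The identity of each protein hit was deposited as a percent, and hit positions (other values) as residues or bases. The tables also hold the authors' fold changes, p-values and FDR, which were not used.

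Pooled reads were recovered as the deposited value over the smallest value of its group, which came out whole (tolerance 0.01) in 100% of cases. The Control reads recovered from either table matched in 100% of 167448 shared unigenes. Log2 ratios were computed from the reads on the authors' size factors, which differed from CPM by -0.012 in SNa and -0.0074 in SKF on the log2 scale. For SNa over SKF the 2 log2 ratios were subtracted, so Control cancels. Intervals are 95% Clopper-Pearson intervals on reads divided by 2, because 79.7%, 78.0% and 74.8% of the values in SNa, SKF and Control were even, as mates counted apart would give. PCR copies are not independent molecules. A floor of 3 reads is 0.0463 CPM in SNa, 0.0346 CPM in SKF and 0.0203 CPM in Control. Unigenes of a symbol were summed, and symbols with a mean normalized count of at least 10 were tested against the fold. The edgeR test planned for counts per culture was not run, since pooled values have no replicates. The study's methods give 3 control cultures, whereas the labels name 4.

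The members and lists were chosen with earlier results of these data known. Named were the 8 members and their unigenes, the 3 largest log2 ratios per list and treatment among symbols with at least 200 Control reads, the 2 markers per list with most Control reads, and the 3 symbols nearest to *jun*. Alternatives were CPM, CPM without mitochondrial and the 100 most abundant unigenes (235 unigenes, 0 of them members'), centring on stretches of 5000 unigene numbers, the highest unigene, a mean of at least 10 per unigene, identity above 80%, the median over unigenes, a pseudocount of 10, a fold of 1 and no filter. Names from the protein tag, also for *junbb*, were added after seeing the data. Python 3.11.15, NumPy 2.4.6, SciPy 1.17.1 and pandas 2.3.3 were used, and the code was tested on simulated data. No member sequence was in the files used.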

Additional observations from a re-analysis of the deposited data

How the results depend on the processing

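No paired analysis was possible because the tables hold 1 pooled value per group, so neither a replicate block nor leaving out a culture could be run. Of the members past the fold, *jun* was past it under 8 of 8 alternatives in each comparison with Control, from -1.07 to -0.87 in SNa and from -0.86 to -0.71 in SKF. Among these, a mean of at least 10 per unigene and identity above 80% could not change its values, since both *jun* unigenes meet them. With its many reads, a pseudocount of 10 hardly could. *nab1a* in SNa ran from -0.78 to -0.47 and was past the fold under 6 of 8, and in SNa over SKF from -0.54 to -0.15, past it under 3 of 8. So the count of members past the fold in SNa was 1 in place of 2 with the unigene of the highest mean or with the median over unigenes. A fold of 1 left 0 members in SNa, in SKF and in SNa over SKF. In SNa over SKF the count was 0 in place of 1 in CPM without mitochondrial and the 100 most abundant unigenes, after centring on stretches, with the highest unigene, with the median over unigenes and with a pseudocount of 10. In the other AP-1 family in SNa the count was 6 with the highest unigene and 1 after centring, in place of 3, and in the other EGR and NAB family in SKF it was 1 after centring, in place of 2. The cause was not tested. Centring turned the sign of *fosl1a* in SNa (0.0058), of *fosab* (0.0094), *fosl1a* (-0.0035), *fosl2* (-0.064) and *egr1* (-0.084) in SKF, and of *fosab* (-0.0097) and *fosl1a* (0.0093) in SNa over SKF, all within the fold, and the median over unigenes also turned that of *fosl1a* in SKF (-0.0086). *egr1* stayed above 0 under 8 of 8 alternatives in SNa (0.077 to 0.24) and in SNa over SKF (0.15 to 0.21). After centring, its unigenes lay on opposite sides of 0 in SNa, 29876 at 0.22 and 136557 at -0.051. Identity above 80% gave no value for *fosab* and *fosl1a*. Of 186 alternative values of single members, 140 stayed within the counting interval and 46 did not. Part of the 140 could not move. A mean of at least 10 per unigene changed only *nab1a*, and identity above 80% changed none of the members it kept. The count is therefore no measure of how stable the values are.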
